A study of Mus musculus with 14 samples.

Results

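The regions described here are stretches of the mouse genome that an Agilent 1-colour expression array probes as candidate long intergenic non-coding RNAs (lincRNAs), each named by its chromosome, start and end in genome build mm9 and by the strand its probes read, F for forward and R for reverse. They were chosen by that name alone, on the autosomes, together with the scanner software's mark that a spot is well above its background. A probe was kept when it carried the mark on every array of at least 1 group, and such a probe is called detected below. By this rule 6069 of the 15604 region probes were detected, in 2853 of the 4429 regions when each strand is counted as a region of its own. A further 577 region probes on a sex chromosome were left out.

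The RNA came from mSCC-38, a line of mouse squamous carcinoma cells isolated from a skin tumour that had been induced with the carcinogen DMBA and the tumour promoter TPA. NT cells received no transfection (4 arrays). The remaining cells were transfected with RNAimax, a lipid reagent that carries small interfering RNA (siRNA) into cells, and were taken after 72 h. SiC cells received a control siRNA (3 arrays), and Si1AK and Si2AK cells received 1 of 2 siRNAs against the non-coding transcript AK144841 (4 and 3 arrays). The labels give no time for NT. SiC replicates 2 and 3 are titled NC2 and NC3 and described as control siRNA. All 14 arrays were made from 0.2 µg of total RNA of the same integrity number, 9. Nothing states that replicates came from separate cultures, and the p-values then reflect only how far these samples differ, which may be technical error. The line has 1 tumour of origin, and in bulk RNA fewer cells of a kind and less RNA per cell cannot be told apart. The level of AK144841 itself was not analysed here, and whether a region probe lies in it was not tested.

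LincRNAs are transcribed by RNA polymerase II between protein-coding genes, and many are spliced and polyadenylated like messenger RNA. Many are also low, cell-type restricted and largely nuclear, and much of the transcription that runs antisense to a gene or away from its promoter is degraded by the nuclear exosome soon after it is made. Some stretches that are called intergenic are unannotated ends of neighbouring genes, extending past the annotated polyadenylation site on the same strand. A few lincRNAs have defined roles, such as Gas5, the host of small nucleolar RNAs, and Dancr, which restrains epidermal differentiation. Probing both strands of a stretch shows from which strand RNA was present.

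The probes are DNA 60-mers. The sequences below belong to the regions on which the comparisons turn, 5′ to 3′, as the files give them, 1 probe for each region. The first 7 are the regions called with both siRNAs against both controls.
chr4:88745770-88774130_R (probe at chr4:88745893-88745952): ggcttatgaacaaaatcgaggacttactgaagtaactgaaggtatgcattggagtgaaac
chr2:77807600-77836075_F (probe at chr2:77819299-77819358): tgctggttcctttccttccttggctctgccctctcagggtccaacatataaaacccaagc
chr19:60269158-60272919_R (probe at chr19:60269180-60269239): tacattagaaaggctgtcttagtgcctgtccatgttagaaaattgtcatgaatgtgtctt
chr4:155585650-155608700_R (probe at chr4:155590899-155590958): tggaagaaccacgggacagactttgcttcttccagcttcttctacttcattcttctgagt
chr4:63810346-63810958_F (probe at chr4:63810799-63810858): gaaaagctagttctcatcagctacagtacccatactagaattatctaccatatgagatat
chr1:162965309-162970704_F (probe at chr1:162967656-162967715): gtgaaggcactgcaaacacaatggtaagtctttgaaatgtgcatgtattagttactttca
chr4:114585803-114588898_F (probe at chr4:114588837-114588896): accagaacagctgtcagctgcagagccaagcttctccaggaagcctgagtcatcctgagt
The next 4 are regions called with a single siRNA against both controls, except chr4:149445201-149445902_F, which both siRNAs called in opposite directions. Capitals mark AATAAA, a letter string that matches the usual polyadenylation signal, where it occurs.
chr8:27925064-27934895_R (probe at chr8:27925635-27925694): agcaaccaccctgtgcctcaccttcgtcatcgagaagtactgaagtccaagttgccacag
chr4:149445201-149445902_F (probe at chr4:149445831-149445890): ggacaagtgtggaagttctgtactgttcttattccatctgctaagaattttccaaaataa
chr10:120069727-120136259_R (probe at chr10:120069888-120069947): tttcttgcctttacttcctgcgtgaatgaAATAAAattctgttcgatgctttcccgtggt
chr3:96074625-96086375_F (probe at chr3:96082736-96082795): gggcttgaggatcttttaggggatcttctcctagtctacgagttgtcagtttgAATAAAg
The last pair reads opposite strands of a single stretch and overlaps on the genome by 8 bases, marked in capitals.
chr9:41137539-41353289_F (probe at chr9:41321726-41321785): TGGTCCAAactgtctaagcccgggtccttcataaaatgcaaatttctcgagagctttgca
chr9:41137539-41353289_R (probe at chr9:41321674-41321733): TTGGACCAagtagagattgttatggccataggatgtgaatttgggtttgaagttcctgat

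AATAAA, searched on the probe's own strand, occurred in 243 of the 6069 detected region probes, 4.0%, against 3.92% of all 15604 region probes. It occurred in 13.8% of the 24252 other probes that were detected. The median GC content was 45.0% in detected region probes (quartiles 41.7% and 53.3%) and 43.3% in those not detected (38.3% and 45.0%).

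Fewer of the region probes than of the other probes were detected. The shares were 38.9% of region probes and 60.5% of the 40077 other probes that are not controls. Of the detected region probes, 4077 (67.2%) carried the mark on all 14 arrays, while 1040 region probes carried it on none and 8495 on some array without meeting the rule. Detected shares ran from 29.8% on chromosome 9 to 48.3% on chromosome 5, and were 37.2% of the 7890 F probes and 40.6% of the 7714 R probes. The median region spans 7451 bases (62 to 7128487) and has 3 probes, at most 10.

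The number of region probes marked on every array of a group was 4264 in NT (27.3%), 5020 in SiC (32.2%), 5411 in Si1AK (34.7%) and 5473 in Si2AK (35.1%). The other probes gave 53.6%, 56.0%, 58.2% and 58.4% in the same order. Probes that qualified through a single group numbered 9 for NT, 158 for SiC, 263 for Si1AK and 357 for Si2AK. These counts follow the rule of selection and carry no test. They also move with single arrays. On 12 of the 14 arrays 35.2% to 46.5% of region probes were well above background, whereas SiC replicate 1 had 88.8% and Si2AK replicate 2 had 80.8%. The other probes were at 58.0% to 64.4% on the same 12 arrays and at 91.2% and 86.4% on these 2.

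Signal is given throughout as log2 of the processed signal minus the array's 75th percentile, so that 0 is the level that the array's 75th percentile probe has, and levels of different probes are not compared. On this scale the median detected region probe lay at -3.39 to -2.76 on the 12 arrays, at -1.52 on SiC replicate 1 and at -2.24 on Si2AK replicate 2. The part of this raised signal in the differences below was tested only by leaving both arrays out. When detection was taken again without them, 6123 probes met the rule.

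**Figure D1:**
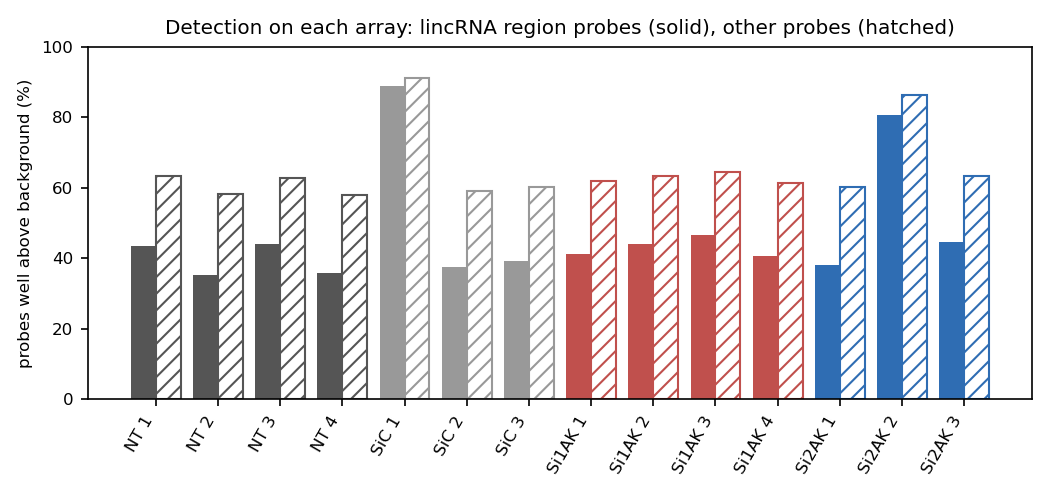
Share of probes well above background (%, vertical axis) on each of the 14 arrays, for lincRNA region probes (solid bars) and all other probes (hatched bars). SiC replicate 1 (88.8%) and Si2AK replicate 2 (80.8%) stand apart from the other 12 arrays, where region probes lie between 35.2% and 46.5%.

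At the edge of the rule, the member marked on the fewest arrays was the only probe of chr7:7075114-7089895_F, with 3 arrays. Its levels were -6.52, -4.82, -7.60 and -6.64 on the NT arrays, -3.54 and -4.32 on the SiC arrays, -7.56, -7.78, -8.13 and -7.73 on the Si1AK arrays and -7.44, -6.59 and -7.93 on the Si2AK arrays, and SiC replicate 2 has no value. The SiC values are higher than all others. Just outside the rule, a probe of chr13:31736054-31781679_R was marked on 10 arrays, 1 of 19 such probes, without covering any group.

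Both strands of a stretch were often detected. Of the 3387 stretches, 1042 (30.8%) have probes to both strands and 2345 to a single strand. Both strands were detected in 589 of the 1042 (56.5%), a single strand in 338 (32.4%; F in 154, R in 184) and neither in 115 (11%). With the mark required on all 14 arrays the first number was 367, and with the mark on any array it was 1027. The name's strand and the strand of the probe's own coordinates differ for 118 probes. The word intergenic was checked against the positions of the array's other probes. Of the detected region probes, 196 (3.23%) lie between 2 probes of a single gene, and 149 overlap a probe of another gene on the same strand, so the signal of these may be that gene's RNA.

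The cells had the markers of the labelled type. Of 10 keratinocyte and squamous carcinoma genes 9 were detected, and the epithelial cadherin Cdh1 was not. Markers of other cell types were detected in part, with 5 of 6 for fibroblasts, 4 of 6 for leukocytes, 3 of 5 for endothelium and 3 of 5 for melanocytes. Over these 5 lists Si1AK changed 1 against SiC, where Cdh5 of endothelium rose by 1.10 (background, the share called among all detected probes, 3.17%). Against NT (4.84%) it lowered 2 keratinocyte genes, Krt14 and Krt18, and raised 3 of other cell types, Cdh5 by 1.27, the collagen gene Col1a1 by 1.45 and the melanocyte gene Mlana by 1.47. Si2AK raised 3 keratinocyte genes and 1 fibroblast gene against SiC (9.68%), and 2 and 2 against NT (11.5%). Between the siRNAs (9.27%) 5 keratinocyte genes and 1 fibroblast gene were higher with Si2AK, and Cdh5 and Mlana lower. No leukocyte gene was called in these comparisons. Their part in the results below was not tested.

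Against SiC, Si1AK changed 116 detected region probes (1.91%), 47 higher and 69 lower, at an adjusted p under 0.05 (limma, Benjamini-Hochberg over all 30321 detected probes). The background was 3.17%, with 2.19% higher and 0.986% lower. Si2AK changed 159 (2.62%; background 9.68%), 56 higher and 103 lower (background 6.54% and 3.13%). Against NT, Si1AK changed 120 (1.98%; background 4.84%), 68 higher and 52 lower (2.87% and 1.97%), and Si2AK changed 215 (3.54%; background 11.5%), 85 higher and 130 lower (6.27% and 5.23%). With both directions together, the share of region probes was below that of all probes in each of these comparisons. By direction the exception was the lower calls of Si1AK against SiC, at 1.14% of region probes against 0.986%. The comparisons share arrays, so their counts are not independent. Single arrays moved them. Si1AK against SiC had 50, 50 and 67 calls without Si1AK replicates 1, 2 and 3, and Si2AK against SiC 64 without Si2AK replicate 1. Si1AK against NT had 63, 64 and 74 without those Si1AK replicates, 78 and 75 without NT replicates 1 and 2, and 240 without SiC replicate 1. Si2AK against NT had 118 and 141 without Si2AK replicates 1 and 2, and 391 without SiC replicate 1. SiC against NT gave 0 calls with limma (background 0.0%). An unadjusted p under 0.05 was found for 334 of the 6069 region probes and for 1994 of all 30321 detected probes. The number of calls was 1 with array weights and 4 without SiC replicate 3.

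The direction of the whole set depended on the 2 arrays of raised signal and on the scaling. The median difference of region probes was -0.48 for Si1AK against SiC, where that of all detected probes was -0.08. Leaving out both arrays gave -0.10, and quantile normalization gave 0.15 with 0.077 over all probes. For Si2AK against SiC the median was -0.20 (all probes -0.016), -0.07 without both arrays and 0.04 after quantile normalization. Against NT the medians were -0.19 for Si1AK and 0.07 for Si2AK, and the latter was -0.17 without both arrays. SiC minus NT was 0.28, and -0.07 without them. The balance of calls moved as well. For Si1AK against SiC, quantile normalization gave 72 higher and 31 lower, the authors' deposited values 77 and 39, and a 75th percentile over the probes detected on all arrays 34 and 89. The same 3 scalings gave 70 and 75, 80 and 81, and 34 and 201 for Si2AK against SiC. For Si1AK against NT the first pair gave 103 and 46, and 103 and 43. With normexp background correction the balance against NT was 45 and 225 for Si1AK, which turns it, and 67 and 220 for Si2AK. Array weights gave 201 and 487 for Si1AK against SiC and 162 and 236 against NT. Without both arrays Si1AK against SiC had 69 higher and 61 lower calls and Si1AK against NT 159 and 297. The statements on single regions below name the scaling where it turns a direction. Of 152 called differences of the probes named below, 65 kept their call after quantile normalization, 81 in the authors' deposited values and 132 without both arrays, and 87 kept it whichever single array was left out.

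**Figure D2:**
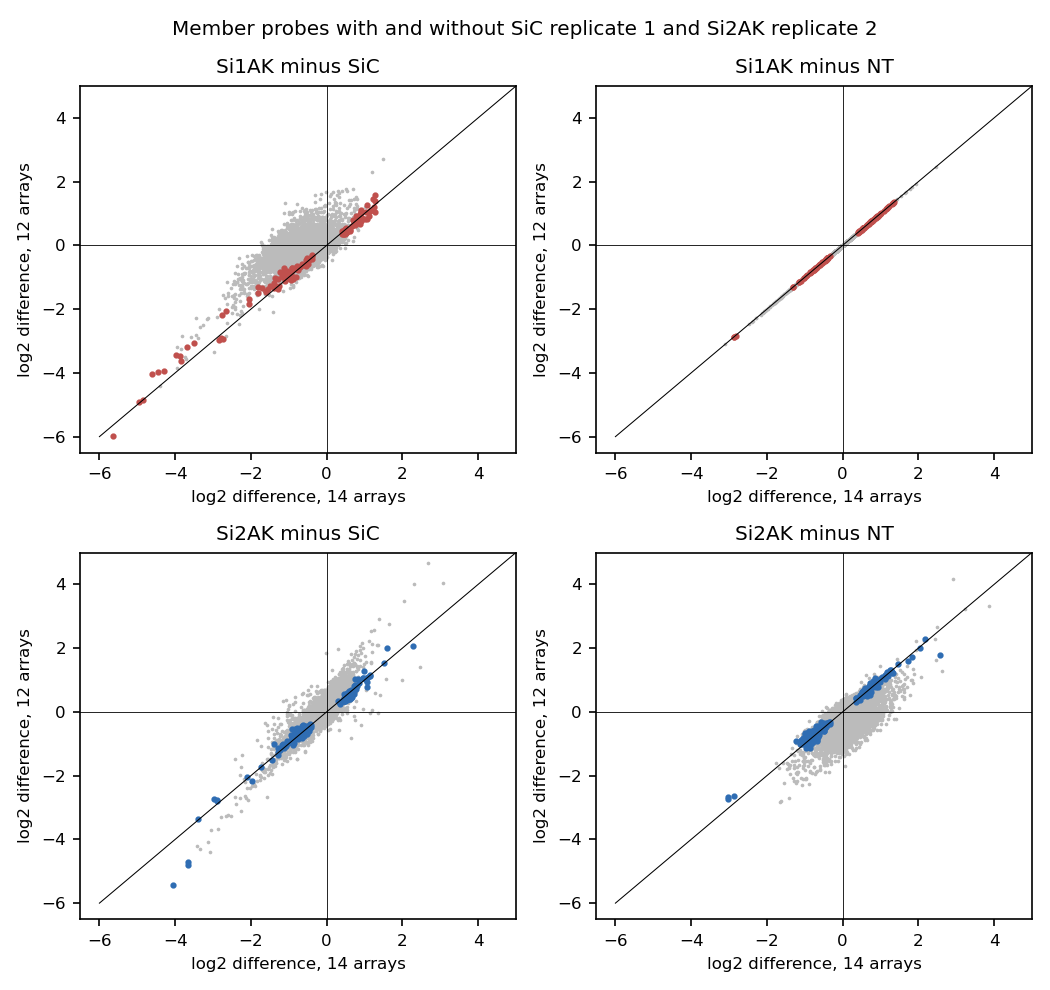
Log2 difference of each detected region probe with all 14 arrays (horizontal axis) and with SiC replicate 1 and Si2AK replicate 2 left out (vertical axis), for Si1AK and Si2AK against each control; coloured points are called with all arrays, grey points are not, and the diagonal marks equal values. The median of Si1AK minus SiC is -0.48 with all arrays and -0.10 without these 2.

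A call in the same direction against both controls was made for 66 probes with Si1AK (1.09%; background 2.29%), of which 40 rose in 21 loci (background 1.74%) and 26 fell in 16 loci (0.544%). A locus joins regions of the same strand that overlap on the genome. With Si2AK it was made for 116 probes (1.91%; background 7.29%), of which 44 rose in 36 loci (4.67%) and 72 fell in 44 (2.61%). No probe was called in opposite directions against the 2 controls. Without SiC replicate 1 and Si2AK replicate 2 all 66 and 116 kept their sign in both differences, and 57 and 71 of them were called again. Quantile normalization kept the sign of 62 and 113 and called 41 and 54 again, and the authors' deposited values kept 65 and 116 and called 39 and 60. With no filter on dim probes 23 and 28 were called again. The fit without SiC replicate 1 and Si2AK replicate 2 called 105 and 119 probes in all. A fit on only the groups compared, which uses fewer arrays, called 11 and 0, so the Si2AK count depended on fitting all groups together. Whether this came from the shared spread, the number of arrays or the arrays of raised signal was not tested. Leaving out Si1AK replicate 1, Si1AK replicate 2 or SiC replicate 2 lowered the first count to 35, 37 and 41. Leaving out Si2AK replicate 1, Si2AK replicate 2 or SiC replicate 2 lowered the second to 51, 63 and 69. The 14 arrays lie on 2 slides of 7. SiC has a single array on the first slide (replicate 1), Si2AK a single array on the second (replicate 3), and each slide alone called 0 with Si1AK and 0 and 4 with Si2AK. The signs were kept there for all 66 and all 116. Scaling moved the balance. Quantile normalization gave 56 higher and 22 lower for Si1AK, the authors' deposited values 57 and 21, normexp 35 and 50, array weights 117 and 142, no filter on dim probes 17 and 6, and the 75th percentile over probes detected on all arrays 32 and 36. That last scaling gave 30 and 131 for Si2AK, and no filter 14 and 14.

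Both siRNAs called 10 probes in the same direction against both controls (0.165% of region probes; background 0.67%). They lie in 7 regions. In 3 of these a probe was higher (background 0.511%) and in 4 the probes were lower (0.158%), and 6 of the probes, in 4 regions, were also called without the 2 arrays of raised signal. That fit called 6 higher and 10 lower probes in all.

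The largest of these changes was in chr4:88745770-88774130_R, a stretch of 28361 bases read by 3 adjacent probes. Levels of the first probe were 2.31, 2.30, 1.94 and 2.17 on the NT arrays, 1.98, 2.37 and 2.26 on the SiC arrays, -0.89, -1.12, -0.58 and 0.00 on the Si1AK arrays and -1.14, -1.14 and 0.20 on the Si2AK arrays. Every siRNA array lies below every control array, with Si1AK replicate 4 and Si2AK replicate 3 nearest to them. This probe fell by 2.85 ± 0.33 (SE, adjusted p = 0.000925) with Si1AK and by 2.89 ± 0.35 (adjusted p = 0.000783) with Si2AK against SiC. Against NT the differences were -2.83 ± 0.30 (SE, adjusted p = 0.000429) and -2.87 ± 0.33 (SE, adjusted p = 0.000307). The other 2 probes gave -2.88 to -2.73 with Si1AK and -3.04 to -2.89 with Si2AK, and all were called. The 3 probes lie side by side in a single stretch and do not count as separate observations of it. Once the 2 arrays were dropped the first probe's differences from SiC were -2.96 and -2.78, both called. Within slide 1 its 4 differences ran from -3.44 to -2.98 and within slide 2 from -2.61 to -1.85. Quantile normalization gave -3.04 to -2.77 for it, also called. Si2AK minus Si1AK was -0.04 ± 0.33 (SE, adjusted p = 0.953).

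Probes of the opposite strand, named chr4:88745771-88776323_F, did not show such a change, but they read another part of the stretch. They lie between chr4:88769869 and chr4:88770203, whereas the first R probe lies at chr4:88745893-88745952. The strand opposite the called probes was therefore not measured. Of these 5 F probes 2 were detected, marked on 6 and 10 arrays and dim, with group means of -5.24 to -4.32. Their differences ran from -0.64 to 0.31 with no call. The gene with the nearest probe is Wincr1, a non-coding gene on the F strand whose probe lies 15428 bases below the first probe. Wincr1 differed from SiC by 0.19 with Si1AK and by 0.31 with Si2AK, and from NT by -0.46 and -0.34, none of them called.

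The region chr2:77807600-77836075_F rose with both siRNAs at its called probe. That probe had levels of -0.86, -0.88, -0.78 and -0.87 on the NT arrays, -1.0, -0.88 and -0.83 on the SiC arrays, 0.32, 0.58, 0.26 and 0.21 on the Si1AK arrays and 0.53, 0.52 and 0.81 on the Si2AK arrays. All siRNA values lie above all control values. The difference from SiC was 1.25 ± 0.11 (SE, adjusted p = 0.000186) with Si1AK and 1.52 ± 0.12 (SE, adjusted p = 4.98e-05) with Si2AK. Against NT it was 1.19 and 1.47. These calls held without the 2 arrays, after quantile normalization and in the authors' deposited values. The region's other detected probe did not follow, at -0.52 to -0.39 in the same comparisons with no call.

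The region chr19:60269158-60272919_R fell with both siRNAs at 2 of its 3 detected probes. The first of them had levels of -2.28, -2.67, -2.0 and -1.99 on the NT arrays, -2.17, -2.16 and -2.28 on the SiC arrays, -3.46, -3.43, -3.14 and -2.96 on the Si1AK arrays and -3.42, -3.62 and -3.06 on the Si2AK arrays. The siRNA arrays are lower than all control arrays. It fell by 1.04 ± 0.19 with Si1AK and by 1.17 ± 0.20 with Si2AK against SiC (adjusted p = 0.0125 and 0.00491). Against NT both differences were also called, at -1.02 and -1.14. Both scalings ended all calls of this region, and the second probe's differences from SiC were not called without the 2 arrays (adjusted p = 0.0645 and 0.0649). Quantile normalization turned Si1AK against SiC to 0.14 at this probe and to 0.20 at the second, and the authors' deposited values gave -0.03 and -0.04, so this direction depends on the scaling. Fam204a, whose probe lies 5307 bases away on the same strand with the region downstream of it, had differences of -0.06 to 0.00 with no call.

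A rise with both siRNAs was also found in chr4:155585650-155608700_R and chr4:63810346-63810958_F. In the first, the probe called in all comparisons had levels of -2.19, -2.48, -1.96 and -2.03 on the NT arrays, -2.24, -2.21 and -1.83 on the SiC arrays, -0.88, -0.68, -0.99 and -1.22 on the Si1AK arrays and -1.34, -1.71 and -1.07 on the Si2AK arrays. Si1AK values are the highest and Si2AK values lie between them and the controls, apart from Si2AK replicate 3, which reaches into the Si1AK range. The differences from SiC were 1.15 ± 0.19 (SE, adjusted p = 0.00663) and 0.72 ± 0.20 (SE, adjusted p = 0.0426). The second of these was not called without the 2 arrays (adjusted p = 0.0501), and was also lost when any 1 of 9 arrays was left out. Quantile normalization ended all 4 calls of the probe (adjusted p = 0.104 to 0.627), and in the authors' deposited values Si1AK against SiC alone was called. A second probe of the region rose with Si1AK by 1.27 against SiC, not called in either scaling, and was not called with Si2AK against SiC (0.80, adjusted p = 0.0518). The nearest gene probe is that of Perm1, on the opposite strand and not detected.

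The second stretch is 613 bases long, and Tnc, which encodes the matrix protein tenascin C, has the nearest gene probe below it. Levels at its called probe were -2.56, -2.37, -2.55 and -2.76 on the NT arrays, -2.60, -2.42 and -2.81 on the SiC arrays, -1.56, -1.38, -1.65 and -1.72 on the Si1AK arrays and -1.70, -2.02 and -1.86 on the Si2AK arrays. The siRNA values are higher than the controls without overlap. Against SiC, Si1AK differed by 1.04 and Si2AK by 0.75, with adjusted p of 0.00175 and 0.00693. Both held without the 2 arrays. They did not hold after quantile normalization or in the authors' deposited values, where none of the probe's 4 differences was called (adjusted p = 0.117 to 0.736 and 0.0504 to 0.51). Tnc itself differed by 0.13 to 0.47 with no call.

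The region chr1:162965309-162970704_F lies between probes of Gas5, at 247 and 893 bases from its called probe and on the same strand. Its levels were -0.34, -0.67, -1.03 and -1.19 on the NT arrays, -0.91, -1.03 and -0.61 on the SiC arrays, -1.60, -1.62, -1.47 and -1.69 on the Si1AK arrays and -1.52, -1.48 and -1.54 on the Si2AK arrays. All siRNA values lie below all control values. Si1AK differed from SiC by -0.74 ± 0.18 (SE, adjusted p = 0.0447) and Si2AK by -0.67 ± 0.19 (SE, adjusted p = 0.0472). Leaving out the 2 arrays made these -0.77 and -0.71, no longer called (adjusted p = 0.0808 and 0.114), while both differences from NT, -0.79 and -0.71 with all arrays, remained called. Quantile normalization ended all 4 calls (adjusted p = 0.0608 to 0.411) and the authors' deposited values those against SiC, which were also lost when any 1 of 12 arrays was left out. Gas5 itself differed by -0.23 to 0.09 with no call, so the region's probe and the gene's probes gave different values.

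The smallest of the changes shared by both siRNAs was in chr4:114585803-114588898_F, between the forkhead factor genes Foxd2 and Foxe3. Here Si1AK differed from SiC by -0.38 and from NT by -0.33, and Si2AK by -0.71 and -0.66. When the 2 arrays were left out Si1AK against SiC was -0.32 (adjusted p = 0.0936). Its size rested on the scaling, since quantile normalization gave -0.01 (adjusted p = 0.988) and the authors' deposited values -0.08 (adjusted p = 0.736). Si1AK against NT was not called in either. The Si1AK call against SiC was also lost when any 1 of 13 arrays was left out, and that against NT with any 1 of 12. Of the region's 3 detected probes 1 was called. Neither gene was called.

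**Figure D3:**
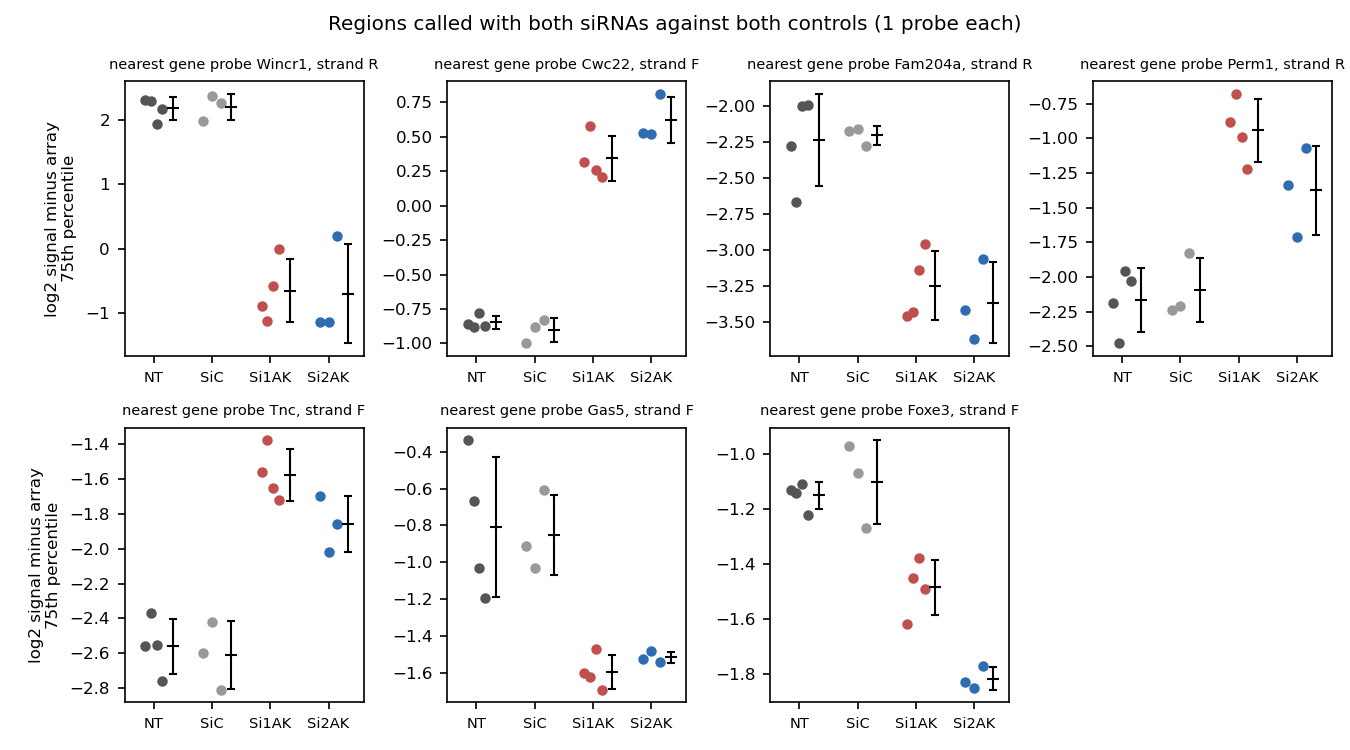
Level (log2 signal minus the array's 75th percentile, vertical axis) on each array in the 4 groups, for 1 called probe of each of the 7 regions called with both siRNAs against both controls; points are arrays, and the dash with its bar is the group mean ± 1 SD. In every panel the siRNA points lie on the same side of all control points.

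Some regions changed against both controls with Si1AK and not with Si2AK. The region chr8:27925064-27934895_R, whose nearest gene probe is that of the zinc finger gene Zfp703, rose at both of its probes. The first had levels of -0.70, -0.61, -0.85 and -0.85 on the NT arrays, -0.52, -0.67 and -0.93 on the SiC arrays, 0.70, 0.90, 0.42 and 0.30 on the Si1AK arrays and -0.59, -0.56 and -1.05 on the Si2AK arrays. Si1AK values are above all others, and 2 of the 3 Si2AK values lie within the range of the controls. Si1AK differed from SiC by 1.29 ± 0.17 (SE, adjusted p = 0.00218) and from NT by 1.33 ± 0.16 (SE, adjusted p = 0.000736). Si2AK differed from them by -0.02 and 0.02. The test between the siRNAs gave a Si2AK minus Si1AK difference of -1.31 ± 0.17 (SE, adjusted p = 0.00064), and the second probe gave -1.39.

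The region chr4:149445201-149445902_F had differences of opposite sign with the siRNAs at all of its 3 probes. At the first named probe the levels were -0.58, -0.53, -0.42 and -0.43 on the NT arrays, -0.78, -0.57 and -0.61 on the SiC arrays, 0.75, 0.62, 0.47 and 0.25 on the Si1AK arrays and -0.99, -1.21 and -1.19 on the Si2AK arrays. Si1AK lies above and Si2AK below every control array. Si1AK rose by 1.18 against SiC (adjusted p = 0.00045) and by 1.01 against NT. Si2AK fell by 0.48 against SiC (adjusted p = 0.0389) and by 0.64 against NT. The 2 siRNAs differed by -1.65 ± 0.12 (SE, adjusted p = 1.54e-05), and the other probes gave -1.54 and -1.51, both called. The fit lacking the 2 arrays gave Si2AK against SiC as -0.50 with an adjusted p of 0.0793, and this call was also lost after quantile normalization (-0.33) and in the authors' deposited values (-0.24). Gpr157, a receptor gene 33829 bases away on the same strand, was not called in any of the 4 comparisons with a control.

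Another rise with Si1AK was in chr10:120069727-120136259_R, a stretch of 66533 bases. The nearest gene probe, that of 4921513I03Rik 145384 bases above, was not detected. On the other side lies the probe of Hmga2, which encodes a chromatin protein of embryonic and tumour cells, 269208 bases away. The region's named probe had levels of -0.18, -0.03, -0.52 and -0.25 on the NT arrays, -0.65, -0.06 and -0.09 on the SiC arrays, 0.82, 1.10, 0.64 and 0.83 on the Si1AK arrays and -0.22, -0.31 and -0.08 on the Si2AK arrays. The 4 Si1AK arrays are the highest. Si1AK differed from SiC by 1.11 ± 0.17 (SE, adjusted p = 0.0042) and Si2AK by 0.06. A second probe of this stretch rose by 1.15 against NT and was not called against SiC (0.95, adjusted p = 0.0809). A probe of chr2:10237649-10287591_F also rose with Si1AK, by 1.06 against SiC and 0.99 against NT. It differed between the siRNAs by -1.12 ± 0.21 (SE, adjusted p = 0.00532).

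Among the falls with Si1AK, the regions chr18:36449530-36456800_F and chr18:36449574-36451609_F overlap and lie 3533 to 3766 bases past the nearest probe of Pura, a gene for a single-stranded nucleic acid binding protein, on the same strand. The probe of the longer region with the largest difference had levels of -0.41, -0.19, -0.22 and -0.46 on the NT arrays, -0.32, -0.39 and -0.27 on the SiC arrays, -1.61, -1.90, -1.52 and -1.47 on the Si1AK arrays and -0.46, -0.80 and -0.68 on the Si2AK arrays. Si1AK arrays are below all others. The difference was -1.30 ± 0.12 (SE, adjusted p = 0.000327) from SiC and -1.31 ± 0.11 (SE, adjusted p = 0.000131) from NT. With Si2AK it was -0.32 and -0.33, not called. The probes of the shorter region fell by 1.55 and 1.07 against SiC. Neither was called against SiC after quantile normalization (adjusted p = 0.21 and 0.152) or in the authors' deposited values (adjusted p = 0.179 and 0.0751). Pura differed by -0.13 to -0.08 with Si1AK, not called. Only 2 of the 7 detected probes of the longer region were called against SiC.

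Si1AK also lowered chr5:74487385-74497428_R, the strand opposite Dancr, at 2 of its 8 detected probes. The first had levels of 2.18, 2.65, 2.59 and 3.07 on the NT arrays, 2.24, 2.63 and 2.75 on the SiC arrays, 1.38, 1.60, 1.65 and 1.75 on the Si1AK arrays and 2.03, 1.83 and 1.97 on the Si2AK arrays. Si1AK values lie below all others, and Si2AK values below all controls. The Si1AK difference from SiC was -0.95 ± 0.19 (SE, adjusted p = 0.0207) and that of Si2AK -0.60 ± 0.20 (SE, adjusted p = 0.0932). From NT the differences were -1.03 and -0.68, both called, the latter not without the 2 arrays (adjusted p = 0.0638). Dancr, whose probe lies 669 bases away on the F strand, differed from NT by -0.72 with Si2AK (adjusted p = 0.00476) and by -0.33 with Si1AK, which was not called, and from SiC by -0.48 and -0.10, not called. The single probe of chr6:82585089-82585332_R fell with Si1AK by 1.39 against SiC and by 1.15 against NT, and after quantile normalization its difference from SiC was 0.15, the opposite sign. The authors' deposited values gave -0.01, and the call against SiC was also lost without the 2 arrays (-1.17, adjusted p = 0.103). The call against NT was lost in both scalings.

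Si2AK changed other regions. The largest rise against both controls was at a probe of chr1:85300475-85331475_R, with levels of -4.37, -3.90, -3.91 and -4.39 on the NT arrays, -2.71, -4.27 and -4.54 on the SiC arrays, -4.88, -4.66, -4.08 and -4.46 on the Si1AK arrays and -0.77 and -2.35 on the Si2AK arrays. Si2AK replicate 1 has no value, so 2 Si2AK arrays stand behind the difference, and replicate 2 of them has raised signal. Both lie above all other arrays. The difference was 2.28 ± 0.55 (SE, adjusted p = 0.0259) from SiC and 2.58 ± 0.52 (SE, adjusted p = 0.00933) from NT. Without the 2 arrays a single Si2AK array remains, at 2.05 from SiC, called with the lone array assumed to vary like the other groups. When Si2AK replicate 2 alone was left out, with SiC replicate 1 in the fit, neither difference was called (from SiC 1.49, adjusted p = 0.17; from NT 1.79, adjusted p = 0.0999). A second detected probe of the region was not called in any comparison.

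A probe of chr3:96074625-96086375_F, 8621 bases downstream of the probe of the histone gene H2bc18 on the same strand, rose as well. The region probe's levels were -3.12, -3.29, -3.16 and -3.60 on the NT arrays, -1.95, -3.25 and -3.30 on the SiC arrays, -1.75, -1.94, -2.56 and -2.20 on the Si1AK arrays and -1.16, -1.18 and -1.40 on the Si2AK arrays. The Si2AK arrays are the highest, and SiC replicate 1 is the highest control and lies within the Si1AK range. Si2AK differed from SiC by 1.59 ± 0.32 (SE, adjusted p = 0.0103) and from NT by 2.04 ± 0.30 (SE, adjusted p = 0.00131). Si1AK rose by 1.18 against NT (adjusted p = 0.0317) and was not called against SiC (0.73). Without the 2 arrays it was, at 1.17. With normexp background correction its difference from NT was 0.54, not called (adjusted p = 0.107). The histone gene itself differed by -0.76 to -0.32 with no call.

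Region chr6:39205913-39248468_R rose at 3 of its 4 detected probes with Si2AK. The first had levels of -0.63, -0.23, -0.53 and -0.71 on the NT arrays, -0.73, -0.55 and -0.26 on the SiC arrays, -0.27, -0.21, -0.55 and -0.58 on the Si1AK arrays and 0.86, 0.47 and 0.60 on the Si2AK arrays. The Si2AK values lie above all others. It differed by 1.16 ± 0.17 (SE, adjusted p = 0.00194) from SiC and by 1.17 from NT, and Si1AK by 0.11 and 0.12. The other probe, at 0.03 and -0.10 with Si2AK, was not called. Between the siRNAs the first probe differed by 1.05 ± 0.16 (SE, adjusted p = 0.00176).

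A probe of chr10:118427606-118430070_R had levels of -2.89, -2.63, -2.38 and -2.59 on the NT arrays, -2.38, -2.35 and -2.41 on the SiC arrays, -2.62, -2.55, -2.60 and -2.50 on the Si1AK arrays and -1.39, -1.40 and -1.27 on the Si2AK arrays. Si2AK arrays are above all others. The difference was 1.03 ± 0.11 (SE, adjusted p = 0.000471) from SiC and 1.27 ± 0.11 (SE, adjusted p = 5.31e-05) from NT, and Si1AK differed by -0.19 and 0.05. Neither Si2AK difference was called after quantile normalization (adjusted p = 0.104 and 0.271) or in the authors' deposited values (adjusted p = 0.0507 and 0.0818).

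Region chr3:90425270-90435820_F lies in the S100 gene cluster, whose genes encode small calcium-binding proteins of the epidermis. A probe of it had levels of -1.06, -0.76, -0.82 and -0.89 on the NT arrays, -0.89, -0.79 and -0.73 on the SiC arrays, -0.52, -0.17, -0.49 and -0.64 on the Si1AK arrays and 0.36, 0.13 and 0.17 on the Si2AK arrays. Si2AK arrays lie above all others, and Si1AK arrays above the controls. Si2AK differed from SiC by 1.03 ± 0.13 (SE, adjusted p = 0.000957) and from NT by 1.11 ± 0.12 (SE, adjusted p = 0.000248). Of the region's 5 detected probes 3 were called against SiC and 4 against NT. S100a6, whose probe has the region downstream of it on the same strand, differed by -0.27 and 0.08 with Si2AK and was not called. S100a7a, 33658 bases above, rose with both siRNAs, by 1.20 (Si1AK) and 0.69 (Si2AK) against SiC and by 1.16 and 0.65 against NT. Smaller rises with Si2AK were found in chr10:39666719-39679959_R, by 1.0 against SiC and 1.30 against NT, and in chr3:137742666-137744470_F, by 0.99 and 1.18. Quantile normalization ended both calls of the first (adjusted p = 0.0581 and 0.159) and that against NT of the second (0.164), whose call against SiC was lost when any 1 of 5 arrays was left out.

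The falls with Si2AK included regions beside, or between probes of, genes that fell with it. The region chr8:59994102-59994797_F lies on the strand of Hmgb2, which encodes a chromatin protein of dividing cells, with its probe 1610 bases past that of the gene. Its levels were -1.69, -1.54, -1.07 and -1.13 on the NT arrays, -1.73, -1.36 and -1.03 on the SiC arrays, -2.25, -2.57, -1.99 and -1.91 on the Si1AK arrays and -2.33, -2.88 and -2.18 on the Si2AK arrays. All Si2AK values are lower than all control values, and so are all Si1AK values. Si2AK differed from SiC by -1.09 ± 0.26 (SE, adjusted p = 0.0209) and from NT by -1.10 ± 0.24 (SE, adjusted p = 0.0116). Without Si2AK replicate 2 these were not called (-0.88, adjusted p = 0.0719; -0.89, adjusted p = 0.0545), nor after quantile normalization (adjusted p = 0.654 and 0.22) or in the authors' deposited values (adjusted p = 0.544 and 0.142). Si1AK differed by -0.81 and -0.82, not called (adjusted p = 0.101 and 0.0581). Hmgb2 itself fell against NT by 0.75 with Si1AK and by 0.88 with Si2AK, and its differences from SiC, -0.49 and -0.62, were not called.

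The named probe of chr2:104597982-104600748_R lies between probes of Qser1 on the same strand, at 348 and 2989 bases. The signal may therefore be that gene's RNA, which was not tested. This region probe had levels of 0.58, 0.32, 0.72 and 1.46 on the NT arrays, 0.38, 0.73 and 0.80 on the SiC arrays, 0.56, 0.35, 0.50 and 0.62 on the Si1AK arrays and -0.41, -0.55 and 0.05 on the Si2AK arrays. Si2AK arrays are the lowest. It fell with Si2AK by 0.94 against SiC (adjusted p = 0.0393) and by 1.07 against NT (adjusted p = 0.0133), and without the 2 arrays the first was no longer called (-0.95, adjusted p = 0.0953). The difference from NT lost its call without Si2AK replicate 1 (-1.01, adjusted p = 0.0552) or replicate 2 (-0.95, adjusted p = 0.0605). A second probe of the region was also called against both controls. Qser1 fell by 1.13 against SiC and differed from NT by -0.82, not called.

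In chr2:180161459-180189542_R the siRNAs went apart. The first named probe had levels of -2.20, -1.81, -1.93 and -1.93 on the NT arrays, -1.55, -1.84 and -1.61 on the SiC arrays, -1.54, -1.19, -1.54 and -1.41 on the Si1AK arrays and -3.25, -2.67 and -2.93 on the Si2AK arrays. Si2AK arrays lie below all others and all Si1AK arrays above the highest control. Si2AK fell by 1.28 against SiC (adjusted p = 0.000954) and by 0.98 against NT, and Si1AK rose by 0.55 against NT only. No difference of this probe from a control was called after quantile normalization or in the authors' deposited values (adjusted p = 0.0833 to 0.439 and 0.079 to 0.316). The difference between the siRNAs was -1.52 ± 0.15 (SE, adjusted p = 0.000128) here, called in both of these, and -1.77 at a second probe, not called after quantile normalization (adjusted p = 0.122). Slco4a1, a transporter gene 43464 bases above on the opposite strand, fell with Si2AK by 0.90 against SiC and 0.94 against NT. The region chr18:5119300-5181600_R showed the same split, with a probe that rose with Si1AK by 0.84 against SiC and fell with Si2AK by 0.86, and differed between them by -1.70. The differences from SiC were not called without the 2 arrays (adjusted p = 0.079 and 0.0524), and no difference from a control was called after either scaling.

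Tested directly, Si2AK and Si1AK differed at 189 region probes (3.11%; background 9.27%), of which 82 were higher with Si2AK and the rest lower (background 4.87% and 4.4%). The balance was 64 and 136 with the 75th percentile over probes detected on all arrays. Without SiC replicate 1 the count was 375, and without Si1AK replicate 1, Si1AK replicate 3 or Si2AK replicate 2 it was 120, 122 and 116. Beside the regions above, the largest differences were at dim probes. In chr4:114631940-114632618_R Si2AK was higher by 2.11 ± 0.55 (SE, adjusted p = 0.0328), and in chr14:21462770-21463270_F it was lower by -1.90 ± 0.53 (SE, adjusted p = 0.0438), the latter not called without the 2 arrays (adjusted p = 0.0858). Neither was called after quantile normalization (adjusted p = 0.554 and 0.0706) or in the authors' deposited values (adjusted p = 0.506 and 0.123).

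**Figure D4:**
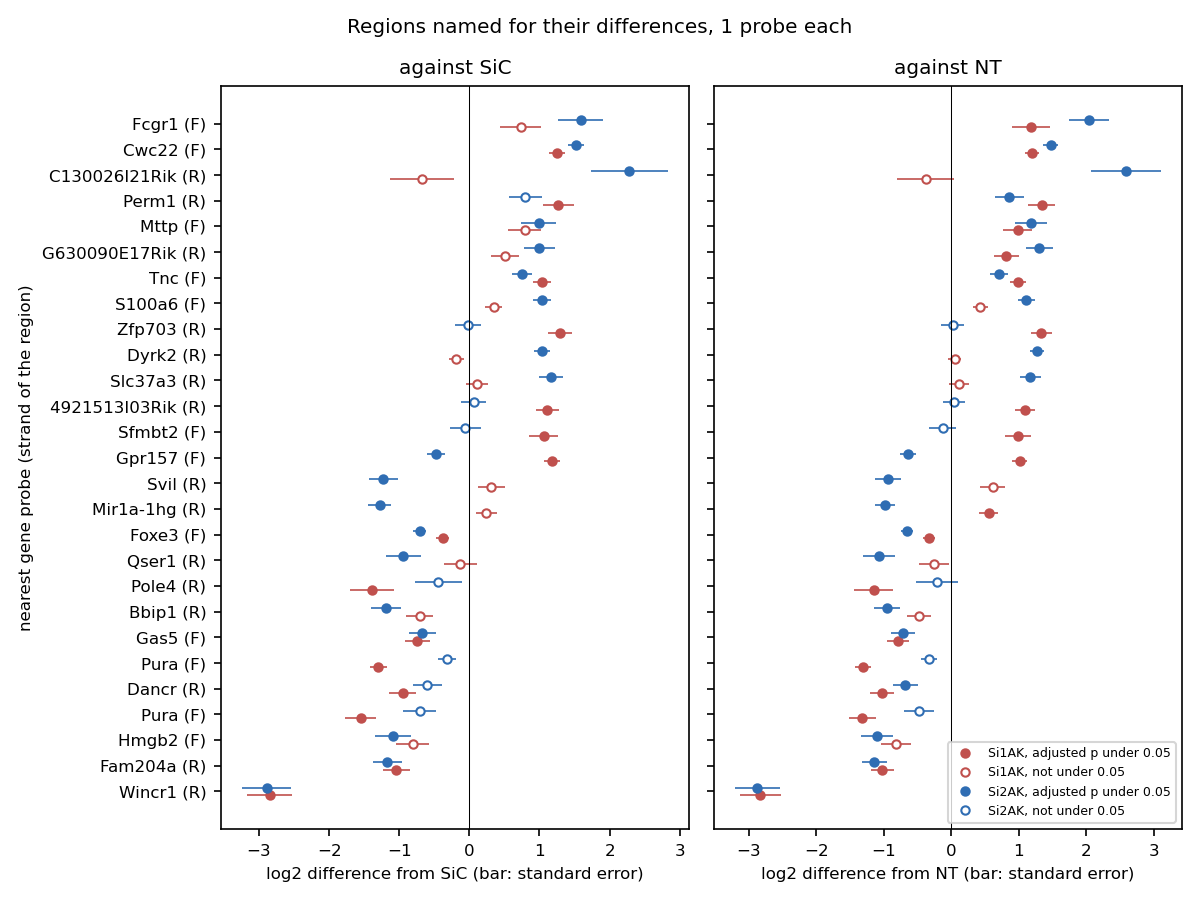
Log2 differences, for 1 probe of each region named among the largest changes against both controls or for a call with both siRNAs, from SiC (left) and NT (right) for each siRNA, with bars of 1 standard error and open points where the adjusted p is not under 0.05; each line is labelled with the gene of the nearest probe and the region's strand. The lowest points of both siRNAs belong to the region beside Wincr1, between -2.89 and -2.83. Regions named for other reasons are not drawn.

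The strands of a stretch were then set side by side. Of the 589 stretches with both strands detected, 102 had a called probe in at least 1 of the 4 comparisons of an siRNA with a control. Against SiC, Si1AK called the F strand alone in 14, the R strand alone in 17 and both in the same direction in 1. The corresponding numbers were 20, 26 and 2 for Si2AK against SiC, 14, 12 and 1 for Si1AK against NT, and 29, 32 and 2 for Si2AK against NT. No stretch had its strands called in opposite directions in these 4 comparisons. Between the siRNAs they were 18, 32 and 0, and 1 stretch had opposite calls.

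As a description over stretches, which share arrays, the differences on the 2 strands (1 probe each) correlated at r = -0.01 for Si1AK against SiC, 0.04 for Si2AK against SiC, 0.00 for Si1AK against NT and 0.02 for Si2AK against NT. Pairs of probes on the same strand of a region (1538 regions) gave 0.28, 0.26, 0.33 and 0.34 in that order. Among probes detected on all 14 arrays the values were 0.01, 0.06, 0.10 and 0.13 between strands (367 stretches) and 0.41, 0.46, 0.53 and 0.57 within a strand (992 regions). On the 12 arrays alone all members gave 0.27, 0.20, 0.33 and 0.26 within a strand and 0.11, 0.07, 0.00 and 0.04 between strands. Those detected on all 14 arrays gave 0.59, 0.48, 0.53 and 0.48 and 0.17, 0.14, 0.10 and 0.10.

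**Figure D5:**
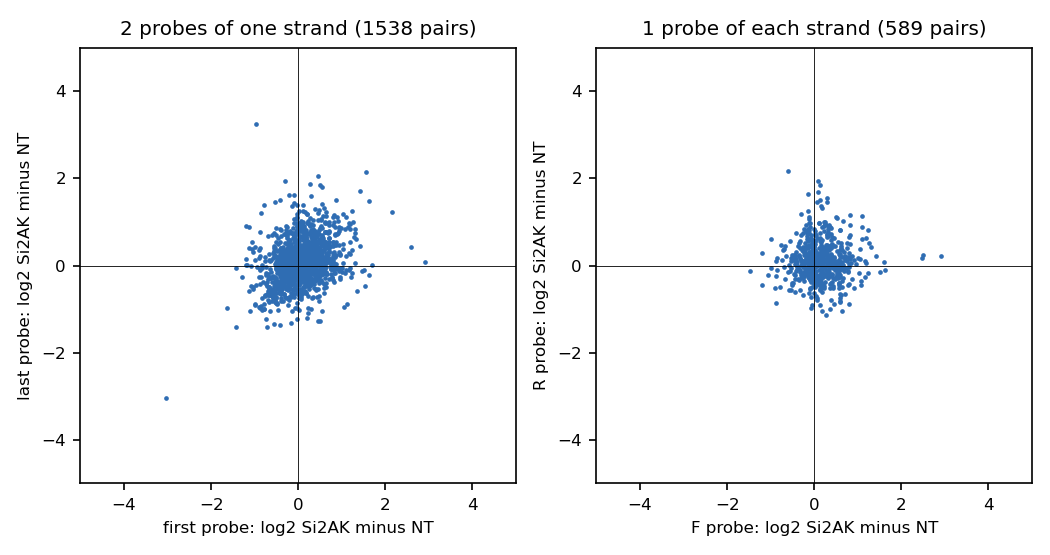
Log2 Si2AK minus NT of a pair of probes of the same strand of a region (left, 1538 pairs) and of 1 probe from each strand of a stretch (right, 589 pairs). The left cloud runs along the diagonal (r = 0.34), the right cloud does not (r = 0.02).

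The stretches with both strands called, picked after their values were seen, were few. In chr19:54011403-54019143 Si2AK lowered both strands against both controls. A probe of the R strand had levels of -2.71, -2.67, -2.69 and -2.33 on the NT arrays, -1.90, -2.73 and -2.46 on the SiC arrays, -3.0, -3.29, -2.88 and -3.14 on the Si1AK arrays and -3.86, -3.42 and -3.38 on the Si2AK arrays. Si2AK arrays lie below all others. It fell by 1.19 ± 0.21 (adjusted p = 0.00508) against SiC and by 0.95 against NT. In all, 3 of 5 R probes and 2 of 3 F probes were called against each control, the F probes at -1.29 and -1.08 against SiC. On the remaining 12 arrays 3 R and 2 F probes were called against SiC and 4 and 2 against NT. The R probe was not called after quantile normalization (adjusted p = 0.454 and 0.148) or in the authors' deposited values (adjusted p = 0.433 and 0.131). Bbip1, 13629 bases away on the R strand, fell by 1.03 against SiC with Si2AK and differed from NT by -0.46, not called (adjusted p = 0.318). With Si1AK no probe of either strand was called.

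In chr5:74487385-74497428, the stretch of Dancr, both strands had calls against NT, all of them lower. Si2AK called 7 of 10 F probes (differences over all 10 from -0.95 to -0.25) and 2 of 8 R probes (-0.74 to 0.14). Si1AK called 3 F probes (-0.94 to -0.05) and the 2 R probes described above (all R probes -1.03 to -0.08). With the 2 arrays left out Si1AK called 7 F and 2 R probes against NT, and Si2AK 8 and 1. Both R probes that Si2AK called with all arrays were then lost (adjusted p = 0.0638 and 0.0702). Against SiC, Si2AK called 6 of the 10 F probes (-0.77 to -0.2 over all 10) and 0 of the 8 R probes. There Si1AK called 0 F probes and the 2 R probes. In chr13:76326228-76332632 Si2AK lowered a probe of each strand against SiC, by 0.71 on F and 0.63 on R, and the R call was lost without the 2 arrays. The stretch chr18:36449530-36456800 had 1 R probe called with Si1AK against SiC beside the 2 F probes, also lost without them. The opposite calls were in chr17:35080914-35090009, where Si2AK minus Si1AK was 0.53 at an F probe and -0.52 and -0.38 at 2 R probes. Without the 2 arrays the F call (adjusted p = 0.0553) and the R call at -0.38 (0.0568) were lost.

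The largest differences on a single strand had another form. In chr9:41137539-41353289 the R probe printed above had levels of -5.0, -6.82, -7.56 and -7.13 on the NT arrays, -2.71, -1.52 and -4.26 on the SiC arrays, -7.53, -7.81, -8.11 and -7.70 on the Si1AK arrays and -7.47, -4.06 and -7.90 on the Si2AK arrays. The 3 SiC arrays and Si2AK replicate 2 lie above all other arrays, and SiC replicates 1 and 2 are the highest. Si1AK differed from SiC by -4.96 ± 0.91 (SE, adjusted p = 0.0132) and from NT by -1.16 ± 0.85 (SE, adjusted p = 0.524). The F probe, 8 bases of which overlap it, had levels of -3.87 to -2.67 on all arrays, and Si1AK differed from SiC by -0.40 ± 0.25 (SE, adjusted p = 0.407). Leaving out the 2 arrays kept the R difference, at -4.90 ± 0.77 (SE, adjusted p = 0.00935). Without SiC replicate 2 it was not called (-4.31, adjusted p = 0.0549), nor after quantile normalization (-3.13, adjusted p = 0.0571) or in the authors' deposited values (-1.15, adjusted p = 0.0963).

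The same form, high on SiC arrays, dim with Si1AK and called against SiC but not against NT, was found at 1 probe each of chr16:8738782-8830148 (F, -4.61), chr15:99762797-99786472 (F, -4.29), chr12:89092175-89105525 (F, -3.84), chr3:48896525-48994125 (F, -3.68), chr13:74642700-74701900 (R, -3.49) and chr1:64686823-64728598 (R, -2.05). Where the same strand had other detected probes, none of those was called. Their differences reached -0.03 in the chr16 stretch, -0.89 in chr3, -0.74 in chr13 and -0.28 in chr1. The opposite strands of these 6 stretches were not called. Without the 2 arrays the calls in the chr15, chr13 and chr1 stretches were lost. After quantile normalization and in the authors' deposited values the chr16 call alone was kept of these 6, and it was lost when any 1 of 10 arrays was left out. Detection of such a probe rests on the SiC group itself, so a difference from SiC was partly set by the rule. SiC minus NT at these probes, 1.45 to 3.80 with the chr9 probe included, was not called in any.

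The stretch chr10:39659425-39674200 ran the other way. Its R probe was higher than NT by 1.36 with Si1AK (adjusted p = 0.0391) and by 2.16 with Si2AK (adjusted p = 0.00275), from NT levels of -6.28, -6.48, -7.28 and -5.78. It was not called against SiC. With normexp background correction Si1AK minus NT was -0.29 there, the opposite sign, and Si2AK minus NT 0.00. Neither was called after quantile normalization or in the authors' deposited values. Its F probe was not called.

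Some probes were marked on every array of a group and on no array of another. A fold is then only a bound, taken against the higher of the probe's own value and the lowest signal well above background on each dim array. There were 79 such probes for Si2AK over NT, 54 for Si1AK over NT, 27 for SiC over Si1AK, 26 for Si2AK over Si1AK and 15 for SiC over NT, and 10 or fewer for each other pair. The same count was not made over the other probes, so nothing particular to region probes is read from these numbers. The share of other probes marked on every array of a group was also lowest in NT, at 53.6%, and 58.4% in Si2AK. The highest bound was for chr2:33496712-33501183_F, at least 16.2-fold higher in Si2AK than in Si1AK (adjusted p = 0.0144). Its levels were -4.05, -5.52, -6.44 and -5.85 on the NT arrays, -1.64, -6.48 and -5.88 on the SiC arrays, -6.28, -7.74, -6.23 and -7.33 on the Si1AK arrays and -0.35, -0.50 and -3.95 on the Si2AK arrays. SiC replicate 1 is also high, and the remaining controls are dim. It was not called against either control with all arrays (adjusted p = 0.163 and 0.0539). SiC exceeded Si1AK at least 12-fold at a probe of chr8:59966759-59989059_R (adjusted p = 0.005), 10.4-fold at a probe of chr9:100977450-100989325_F, 7.42-fold in chr13:78566508-78581785_F and 6.9-fold in the R probe of chr9:41137539-41353289. In the authors' deposited values none of these 4 differences was called, and after quantile normalization that of chr9:100977450-100989325_F alone. All of these probes met the detection rule only through the group where they are high, so each difference and its p was partly set by the rule and supports nothing further. Other detected probes of these regions did not follow. Their Si1AK minus SiC was 1.49 in chr8:59966759-59989059_R, the opposite sign, -0.44 in chr9:100977450-100989325_F and -0.25 in chr9:41137539-41353289_R, none called. In chr15:12126433-12126745_R, also detected only through SiC, the bound was 7.63-fold and the difference was not called (adjusted p = 0.0606).

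Called regions were set beside the nearest gene probe, first within 10000 bases. For Si1AK against SiC 26 called loci had a detected neighbour there, and 3 of these genes were called in the same direction and 0 in the opposite. The numbers were 37 loci with 7 and 0 for Si2AK against SiC, 25 with 7 and 0 for Si1AK against NT, and 42 with 15 and 2 for Si2AK against NT. At any distance they were 66 loci with 4 and 2, 85 with 13 and 2, 54 with 8 and 2, and 112 with 22 and 7. The share called among all detected probes, in either direction, was 3.17%, 9.68%, 4.84% and 11.5% in that order. Hmgb2, Qser1 and Dancr above are examples of genes called in the same direction, and Pura, Gas5 and Fam204a of neighbours that were not called with the siRNA that called the region. The named region probes at Qser1 and Gas5 lie between probes of that gene. Within 10000 bases the median distance was 1180 to 1485 bases. Neighbours on the array are those with a probe, and genes without one were not used.

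The genes of the nuclear exosome and its adaptors, which degrade short-lived intergenic and antisense RNA, moved little. All 29 were detected. No gene was called in Si1AK against SiC, Si2AK against SiC or Si1AK against NT, where the list's medians were 0.03, 0.00 and -0.14 (all detected probes -0.08, -0.016 and -0.091). Against NT, where 5.23% of all detected probes were lower, Si2AK lowered 2 of the 29, Exosc8, a core exosome subunit, by 0.48 and Dis3, its nuclease, by 0.57. The list's median there was -0.12, against 0.043 over all detected probes.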

How the data were processed

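RNA of 14 samples was hybridised to 1 Agilent array each. Intensity values were deposited per spot as written by Feature Extraction 10.7.3.1, per the file headers: background was subtracted inside each array, and arrays were not scaled to each other. The 0 or 1 marks for well above background, saturation and outliers are deposited in the same files. The authors' deposited value table is on a log2 scale, made with limma per the submitters' processing notes; its background correction and normalization are not given in the sources used here. Probe positions are on mm9, per the file headers.

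Spots marked as outliers and control spots were left out, and spots of a probe averaged. Log2 of the processed signal minus the array's 75th percentile was fitted by group over all 14 arrays by lmFit and eBayes of limma (version 3.58.1, R 4.3.3), which left 10 residual degrees of freedom, on the 30321 detected probes. P-values were adjusted by Benjamini-Hochberg over all of them, and a call is an adjusted p under 0.05. The fit was tested on simulated data. No probe was saturated. The number of arrays limits the precision. No block was used: same-numbered arrays correlated between -0.676 and 0.706, so replicate numbers do not pair the samples. Gene symbols of 27656 other probes were updated through RefSeq names of another build, whose coordinates were not used.

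The members and lists were chosen with earlier results of these data known. Named probes are, for each siRNA, the 10 that rose and the 10 that fell most against both controls (ranked by the smaller difference), those called with both siRNAs, 8 stretches with both strands detected and the largest called difference, the 3 highest and 3 lowest called between the siRNAs, the 6 highest bounds and the edge of the rule. Alternatives were the scaling, background correction, detection filter, blocks by slide and replicate number, array weights, the samples in the fit and each array left out.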

Additional observations from a re-analysis of the deposited data

Results flagged for a closer look

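Of 134 sets of values in a group of 4 arrays, 5 held an array apart from the other 3 by Dixon's criterion, and chance alone gives about 1 set in 20. A set held a named probe's levels, the share of region probes well above background or the median level of detected region probes. All 5 were levels of a named probe. In chr2:77807600-77836075_F, NT replicate 3 was at -0.78 and the other NT arrays at -0.88 to -0.86. In chr2:10237649-10287591_F, NT replicate 1 was at -1.27 and the others at -1.38 to -1.36. In a probe of chr4:63810346-63810958_F, NT replicate 3 was at -3.82 and the others at -3.60 to -3.55. In chr19:54011403-54019143_R, NT replicate 4 was at -2.33 and the others at -2.71 to -2.67. These 4 gaps are under 0.5 on the log2 scale. In chr4:114631940-114632618_R, which was not well above background on all arrays, Si1AK replicate 4 was at -7.61 and the others at -5.73 to -5.43.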

How the results depend on the processing

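The counts below are in the order Si1AK and Si2AK against SiC, Si1AK and Si2AK against NT, Si2AK against Si1AK, and the calls against both controls for Si1AK and Si2AK. With all arrays they were 116, 159, 120, 215, 189, 66 and 116. Array weights gave 688, 387, 398, 340, 444, 259 and 222, with weights of 0.0837 for SiC replicate 1 and 0.243 for Si2AK replicate 2. The brightest probe of each region, with fewer probes tested, gave 52, 90, 54, 121, 97, 30 and 69. No filter on dim probes, with more tested, gave 40, 41, 42, 84, 87, 23 and 28. Fits on only the groups compared gave 18, 0, 314, 141, 284, 11 and 0. Slide 1 alone gave 0, 0, 0, 5, 5, 0 and 0, and slide 2 alone 0, 5, 0, 11, 18, 0 and 4, with fewer samples. A slide block gave 177 for Si1AK against SiC and 200 against NT, and normexp background correction 270 for Si1AK against NT (45 higher and 225 lower). Without the 2 arrays of raised signal Si1AK against NT had 456, Si2AK against NT 441, Si2AK against Si1AK 323 and Si1AK against both controls 105, and with detection taken again 456, 443, 324 and 106. SiC against NT had 1 call with array weights and 1 with detection taken again without the 2 arrays. Apart from the changes in samples and probes tested, the cause of these shifts was not tested.

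Leaving out each array in turn gave 50 to 136, 64 to 191, 63 to 240, 118 to 391, 116 to 375, 35 to 80 and 51 to 161 calls, 0 to 4 for SiC against NT, 6088 to 6965 detected probes and 589 to 678 stretches with both strands detected. With the mark on at least 1 array 14564 probes were detected and 1027 stretches had both strands, against 367 with all 14 arrays and 390 with every NT array. The replicate number as a block gave 93, 142, 113, 179, 177, 59 and 94 calls and moved no count by over 1.5 times. Among 152 called differences of named probes, 4296 alternative values were computed, of which 3233 kept direction and call, 1059 lost the call and 4 reversed. Leaving out single arrays ended no call for 87 of the 152, and 10 or more arrays each ended it for 18. The reversed ones were Si1AK minus SiC after quantile normalization, at 0.15 in chr6:82585089-82585332_R and 0.14 and 0.20 in chr19:60269158-60272919_R, and Si1AK minus NT with normexp, at -0.29 in chr10:39659425-39674200_R. Their cause was not tested. Most region probes lie well below the 75th percentile of the array, near the background, where signal limits the precision.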
